A study of Mus musculus with 9 samples.

Results

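The integrin and laminin genes were examined across 3 immortalized mouse striatal cell lines. They were taken from the count table by symbol, as those beginning with Itga or Itgb plus a digit or 1 of the letters l, m, v, x, d and e, or with Lama, Lamb or Lamc plus a digit, without the integrin-binding proteins Itgb1bp and Itgb3bp. The rule found 39 of the 36410 genes listed. These are 27 integrin subunits, 11 laminin chains and Itgbl1, which the symbol brings in although its product is an integrin beta-like protein and no subunit of a receptor. Of the 39 genes, 31 passed a filter on low counts and were tested.

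Laminins are large secreted trimers of an alpha, a beta and a gamma chain that polymerise into basement membranes, the sheets of matrix to which cells adhere. Integrins are cell surface receptors, each built from 1 alpha and 1 beta subunit, that bind laminins, collagens, fibronectin and other ligands outside the cell and link them to actin through talin, kindlin and their adaptors inside it. The alpha subunit largely sets which ligand is bound, and in the developing brain both families guide neural progenitors, axons and vessels.

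The RNA came from striatal cells carrying knock-in Htt exon 1, derived from mouse embryos and labelled with the strain C57/BL6. The control line is STHdhQ7/Q7, with 7 glutamine codons on both alleles, HD-het is STHdhQ7/Q111, with 7 and 111, and HD-homo is STHdhQ111/Q111, with 111 on both. All lines were immortalized and grown in culture, and each genotype is represented by 1 line, so genotype and line cannot be told apart. Each line gave 3 libraries, and no source used here says that they were separate cultures, so the p-values measure the spread between libraries, which may be technical.

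The libraries held from 29507665 to 41197931 counts, so that 3 counts, taken as the smallest number that can show a gene, correspond to 0.0710 to 0.101 counts per megaread (CPM). This floor and the counting intervals given further on cover counting error only. All pairs of replicates differed by more than counting noise, with variances from 1.54 to 12.1 times that of counting alone, and HD-homo replicate 2 stood farthest from replicate 3. Of 11 markers of medium spiny neurons, the main neurons of the striatum named in the label, 5 passed the filter, and the list summed to 3.75 to 7.56 CPM over the libraries. The defining Drd1 had 0 reads in the 9 libraries, Drd2 at most 1 and Ppp1r1b at most 17, while Pde10a stood at 2.07, 5.02 and 1.56 CPM in control, then HD-het, then HD-homo cells. Bcl11b was also highest in HD-het cells, at 0.167, 0.562 and 0.0739 CPM. Penk, at 1.28, 0.470 and 2.42 CPM, and Rgs9, at 0.405, 0.0884 and 0.389, were lowest there. Adora2a stood at 0.414, 0.396 and 0.233 CPM. Of 6 pan-neuronal markers 3 passed, with Map2 at 62.9, 60.4 and 59.7 CPM and Tubb3 at 42.4, 50.8 and 37.8, whereas Rbfox3 had at most 2 reads. The neural progenitor gene Nes stood at 526 ± 34.6 CPM in control, 839.5 ± 18.1 in HD-het and 28.4 ± 6.52 in HD-homo cells (mean ± SD, n = 3, as for every ± below). In such bulk RNA, fewer cells of a type and less RNA per cell cannot be told apart.

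Sequence upstream of the start was taken from RefSeq (GRCm38.p6) for 25 of the 39 genes, and 5 windows of 250 bases are shown for the genes on which several results turn. Itga1 and Itga2 are neighbours whose levels differed between the HD lines, Itgb1 and Itgb5 are abundant beta subunits that were both higher in HD-het and lower in HD-homo cells, and Lama5 is the main alpha chain of control cells. Each window is written 5′ to 3′ on the strand of the gene and ends at the base before the RefSeq start, and capitals mark the GC box GGGCGG on either strand, where CCGCCC is its reverse complement.
Itga1, chr13:115101965-115102214, minus strand: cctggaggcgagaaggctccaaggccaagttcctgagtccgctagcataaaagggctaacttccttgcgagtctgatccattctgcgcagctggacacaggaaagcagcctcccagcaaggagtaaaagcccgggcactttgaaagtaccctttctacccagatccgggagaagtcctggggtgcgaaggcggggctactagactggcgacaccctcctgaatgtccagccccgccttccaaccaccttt
Itga2, chr13:114932101-114932350, minus strand: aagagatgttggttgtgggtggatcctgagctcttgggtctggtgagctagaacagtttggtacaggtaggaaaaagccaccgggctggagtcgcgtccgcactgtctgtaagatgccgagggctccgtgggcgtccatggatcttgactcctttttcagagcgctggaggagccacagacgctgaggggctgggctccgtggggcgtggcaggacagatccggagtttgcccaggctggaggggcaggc
Itgb1, chr8:128685404-128685653, plus strand: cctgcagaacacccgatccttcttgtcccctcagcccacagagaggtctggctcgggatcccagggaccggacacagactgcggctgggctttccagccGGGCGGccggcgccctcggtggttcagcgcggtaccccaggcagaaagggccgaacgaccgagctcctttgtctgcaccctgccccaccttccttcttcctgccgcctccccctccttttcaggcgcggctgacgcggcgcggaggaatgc
Itgb5, chr16:33829415-33829664, plus strand: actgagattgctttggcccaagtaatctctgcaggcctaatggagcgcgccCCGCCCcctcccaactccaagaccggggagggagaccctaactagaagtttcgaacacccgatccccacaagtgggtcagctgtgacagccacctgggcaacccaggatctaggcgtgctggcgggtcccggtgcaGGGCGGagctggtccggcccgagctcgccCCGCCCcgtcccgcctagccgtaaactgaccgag
Lama5, chr2:180225860-180226109, minus strand: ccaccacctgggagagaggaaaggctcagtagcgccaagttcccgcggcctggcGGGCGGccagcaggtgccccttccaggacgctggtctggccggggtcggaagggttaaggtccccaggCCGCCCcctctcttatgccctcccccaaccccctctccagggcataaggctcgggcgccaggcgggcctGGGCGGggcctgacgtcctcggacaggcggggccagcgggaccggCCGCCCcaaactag

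Those of Itgb1, Itgb5 and Lama5 hold GC boxes, 1 in Itgb1, 3 in Itgb5 and 4 in Lama5, and those of Itga1 and Itga2 hold none of the 4 motifs searched. These were the GC box GGGCGG, the box of letters CCAAT, the TATA box TATAAA and the AP-1 site TGANTCA, each on both strands. Among 32851 RefSeq windows of the same length 32.7% held GGGCGG, 33.8% CCAAT, 12.4% TATAAA and 6.75% TGANTCA. The GC box occurred in windows of 9 of the 25 genes. The share of G and C was 57.6% for Itga1, 60.8% for Itga2, 68% for Itgb1, 65.2% for Itgb5 and 72.4% for Lama5, against a median of 52.4% over all windows. A match is a match of letters and no evidence of binding.

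Pairs of lines were compared by the two-sided quasi-likelihood test of edgeR, fitted to the 9 libraries at once and adjusted after Benjamini and Hochberg over 13508 genes. In HD-homo against control cells 8 of the 31 genes were higher and 14 lower at an adjusted p under 0.05, where 58.6% of all tested genes were called, 29.6% as higher and 28.9% as lower. In HD-het against control cells 18 were higher and 5 lower, where 65.1% of all tested genes were called, 33.8% as higher and 31.4% as lower. In HD-homo against HD-het cells 7 were higher and 21 lower, where 71.6% of all tested genes were called, 36% as higher and 35.6% as lower. Most genes of the table thus differed between these lines. The libraries of a pair of lines did not overlap for 24 of the 31 genes in the first comparison, 23 in the second and 28 in the last, where 65.3%, 74% and 72.8% of all tested genes did not overlap.

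The size of the log2 fold change, without its sign, had a median of 1.29 in HD-homo against control cells (0.318 over all tested genes), 1.03 in HD-het against control cells (0.401) and 1.95 in HD-homo against HD-het cells (0.464). With its sign, the median of the 31 log2 fold changes was -0.48, 0.75 and -1.36 in the same order. An adjusted p under 0.05 with a log2 fold change of 1 or more in size was found for 17 genes in HD-homo and 16 in HD-het against control cells, where 19.1% and 18.4% of all genes reached it, and for 21 in HD-homo against HD-het cells, where 24.3% did. A gene that passed the filter only through the lines in which it is high had to differ, so these counts are descriptions. Itga8, Itga9 and Lama3 passed only because of HD-het cells, and no control library of Lama4 or Itga2 reached the cutoff, so no p is given for these differences from the low line. With at least 10 counts required in every library, 24 of the genes were left.

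**Figure D1:**
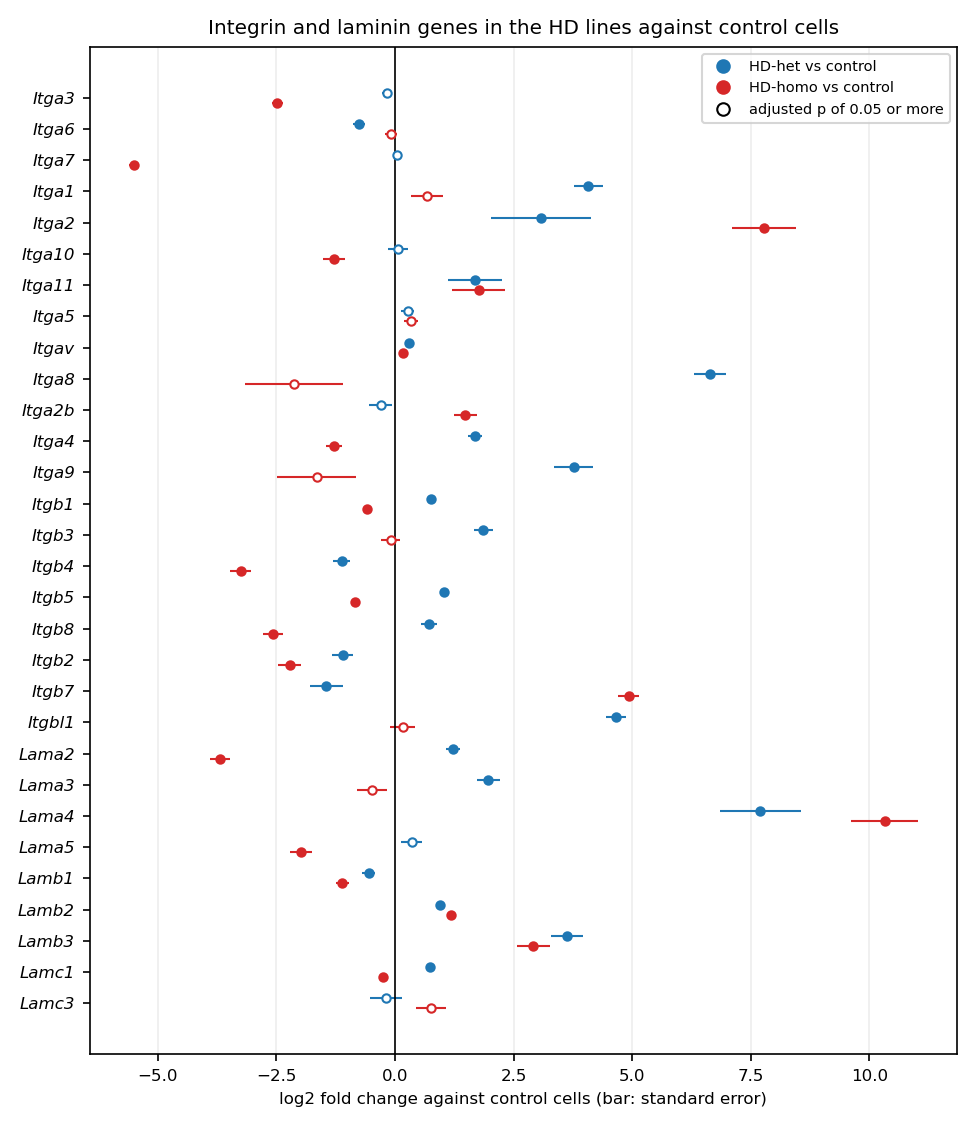
Log2 fold change with its standard error for 30 of the 31 tested genes in HD-het (blue) and HD-homo cells (red) against control cells, which both comparisons share; open symbols have an adjusted p of 0.05 or more. Lama4 and Itga2, which had to differ from control cells, lie far to the right in HD-homo cells and Itga7 far to the left. Itga1 and Itgbl1 lie far to the right in HD-het cells, as does Itga8. Itga8, Itga9 and Lama3 passed the filter only because of HD-het cells, so their filled symbols there are no test.

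The laminin alpha chains did not all move in the same direction. Lama4, a chain of vessel and nerve basement membranes, was nearly absent from control cells and highest in HD-homo cells. Its counts were 1, 0 and 2 in control libraries 1 to 3, 204, 171 and 369 in those of HD-het and 1121, 1333 and 2315 in those of HD-homo cells. The lines did not overlap, and replicate 3 was the highest library in both HD lines. Mean levels were 0.0329 ± 0.0338, 7.34 ± 3.23 and 45.0 ± 20.9 CPM. With only 3 counts in control cells in all, the ratio to control was 223 in HD-het cells (95% counting interval 79.3 to 1131) and 1367 in HD-homo cells (478 to 6784). The fitted log2 fold changes of 7.71 and 10.32 depend on the prior count and are no bounds. HD-homo exceeded HD-het cells 6.13-fold, a log2 fold change of 2.61 (SE 0.333, edgeR adjusted p = 2.81e-05).

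Lama5, the alpha chain found most widely in adult basement membranes, went the other way in HD-homo cells. It measured 266, 245 and 222 CPM in control libraries 1 to 3, 385, 363 and 187 in those of HD-het and 75, 55.2 and 55.0 in those of HD-homo cells. HD-homo cells were below all other libraries, whereas HD-het cells overlapped with control cells because replicate 3 fell under the control range. The level in HD-homo cells was 3.96-fold lower than in control cells (log2 fold change -1.99, SE 0.232, edgeR adjusted p = 2.32e-05) and 5.05-fold lower than in HD-het cells (-2.34, SE 0.234, adjusted p = 4.12e-06). The difference between HD-het and control cells was 0.35 (SE 0.222, adjusted p = 0.184), and without HD-het replicate 3 it was 0.62 (adjusted p = 0.00166).

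Lama2, the alpha chain of the laminin of muscle and nerve called merosin, was highest in HD-het cells. Control libraries held 10.8, 10.4 and 7.17 CPM, HD-het libraries 20.1, 22.6 and 23.8, and HD-homo libraries 0.858, 0.568 and 0.805. No libraries of different lines overlapped. The level was 2.35-fold higher in HD-het than in control cells (log2 fold change 1.23, SE 0.149, edgeR adjusted p = 2.69e-05) and 12.7-fold lower in HD-homo cells than in controls (-3.69, SE 0.206, adjusted p = 4.97e-08). Lama3, the alpha chain of epithelial laminin, was low in all lines, at 0.325 ± 0.0698, 1.28 ± 0.161 and 0.235 ± 0.0434 CPM, and its HD-het libraries lay above all others. Lama1, an alpha chain of early embryos, had at most 4 reads and was not tested.

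Among the beta chains, Lamb1 fell and Lamb2 rose in both HD lines. Lamb1, the common beta chain of embryonic laminins, measured 471, 455 and 484 CPM in control libraries 1 to 3, 317, 307 and 337 in those of HD-het and 236, 159.8 and 258 in those of HD-homo cells, and no lines overlapped. It was 2.16-fold lower in HD-homo cells than in controls (log2 fold change -1.11, SE 0.137, edgeR adjusted p = 3.64e-05) and 1.47-fold lower in HD-het cells (-0.55, SE 0.136, adjusted p = 0.0039). Lamb2, a beta chain known from synapses and kidney glomeruli, measured 174, 162 and 140.4 CPM in control libraries 1 to 3, 332, 311 and 280.3 in those of HD-het and 345, 384 and 352 in those of HD-homo cells. Both HD lines lay above the control libraries. The gene was 2.27-fold higher in HD-homo cells (log2 fold change 1.18, SE 0.0885, edgeR adjusted p = 5.79e-07) and 1.94-fold higher in HD-het cells (0.95, SE 0.0882, adjusted p = 3.40e-06). The step from HD-het to HD-homo cells was small, 0.23 (SE 0.087, adjusted p = 0.034), and was no longer called without HD-het replicate 2 (adjusted p = 0.0692), HD-het replicate 3 (0.125) or HD-homo replicate 2 (0.098).

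Lamb3, the beta chain of epithelial laminin, rose in both HD lines from a low level. Control libraries held 0.778, 0.803 and 0.609 CPM, HD-het libraries 8.91, 6.71 and 11.6, and HD-homo libraries 5.95, 3.32 and 7.58. Every HD library exceeded every control library, and the HD lines overlapped with each other. The log2 fold change against control was 3.62 in HD-het cells (SE 0.344, edgeR adjusted p = 4.09e-06) and 2.92 in HD-homo cells (SE 0.351, adjusted p = 2.93e-05). HD-homo was below HD-het cells by the test, at -0.70 (adjusted p = 0.0332), a call that was lost without HD-het replicate 1 (0.0662) or 3 (0.139), without HD-homo replicate 1 (0.0545) or 2 (0.0896), and in a fit of these lines alone (0.0572).

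Lamc1 and Lamc3 are gamma chains. Lamc1, the gamma chain of most laminins, stood at 523 ± 30.5, 877 ± 109.8 and 443 ± 22.3 CPM in control, then HD-het, then HD-homo cells. Its log2 fold change was 0.75 in HD-het cells (edgeR adjusted p = 2.44e-05) and -0.24 in HD-homo cells (adjusted p = 0.0369), and the latter was not called without control replicate 1 (0.123) or 2 (0.0958) or HD-homo replicate 2 (0.0863) or 3 (0.0764). Lamc3, a gamma chain of low abundance, had 0.863 ± 0.117, 0.757 ± 0.0590 and 1.47 ± 0.740 CPM and passed the test between the HD lines, but not without HD-het replicate 3 (adjusted p = 0.0565) or HD-homo replicate 3 (0.0753).

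**Figure D2:**
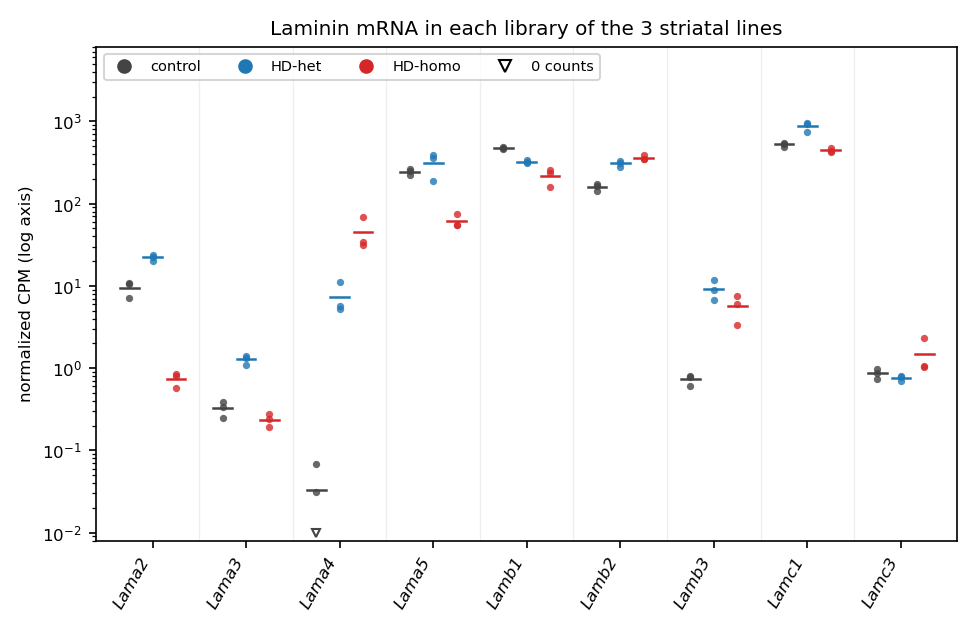
Normalized CPM of 9 tested laminin genes in each library (points, log axis) with the mean of each line (bars) and libraries with 0 counts at the lower edge (open triangles). Lama4 climbs from under 0.1 CPM in control cells to between 31.6 and 69.0 in HD-homo cells, and Lama2 is lowest in HD-homo cells.

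Levels of different genes were compared per kb of their longest coding transcript in GENCODE M21. On that scale the alpha chains summed to 22.5 ± 2.13 CPM per kb in control, 31.0 ± 8.85 in HD-het and 13 ± 3.14 in HD-homo cells, and the beta chains to 109.7 ± 2.59, 112 ± 3.15 and 103 ± 6.07. The shares of single genes in these sums differed between the lines. Lama5 made up 95.5% ± 0.545 of the alpha sum in the control, 86.9% ± 7.12 in the HD-het and 43.5% ± 12.4 in the HD-homo line, where Lama4 made up 55.7% ± 12.5. Those of Lama4 and Lama5 in HD-homo cells lay within each other's SD. Lamb1 fell from 74.2% ± 2.45 of the beta sum to 49.5% ± 2.83 and 36.4% ± 6.77, and Lamb2 came to 25.7% ± 2.43, 48.8% ± 3.23 and 62.5% ± 7.13.

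**Figure D3:**
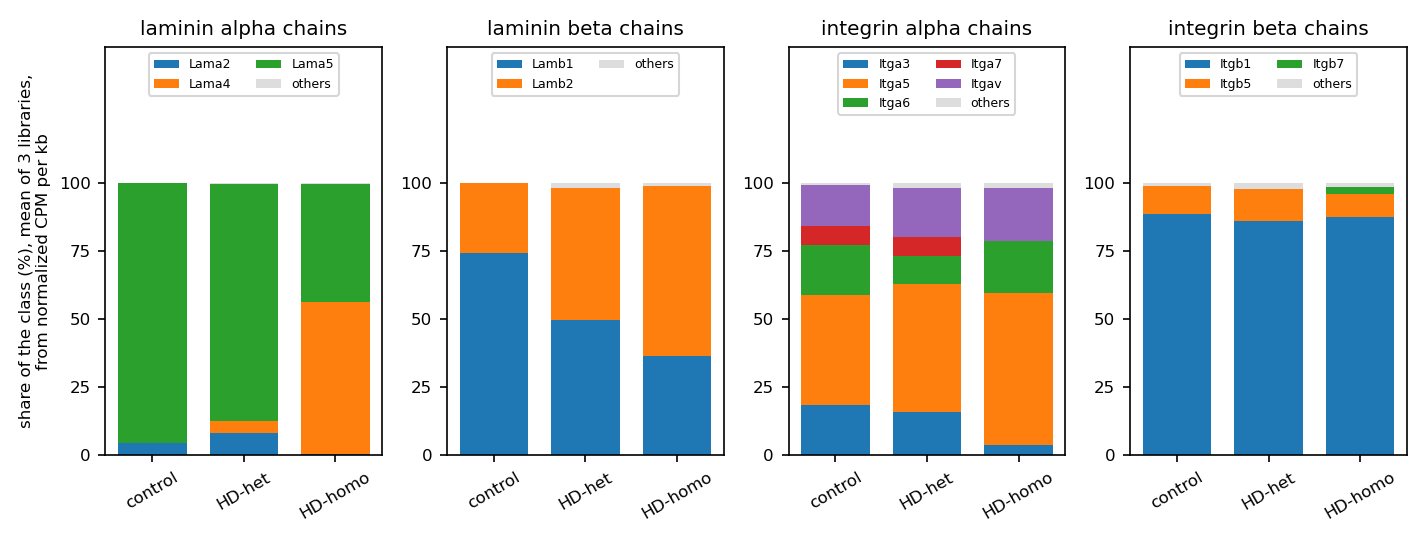
Share of each gene in the summed normalized CPM per kb of its class (bars, %, mean of 3 libraries) in control, then HD-het, then HD-homo cells, with genes under 2% in each line pooled as others. Lama4 is 55.7% of the laminin alpha sum in HD-homo cells, and Itgb1 is the largest share of the integrin beta sum in each line.

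Of the 3 laminin-binding alpha subunits, Itga7 and Itga3 fell in HD-homo cells. Itga7, the laminin receptor subunit known from muscle, measured 115, 114 and 109 CPM in control libraries 1 to 3, 122, 114 and 111 in those of HD-het and 1.96, 2.84 and 2.59 in those of HD-homo cells. Control and HD-het cells overlapped (log2 fold change 0.039, SE 0.0777, edgeR adjusted p = 0.677), and HD-homo cells lay far below both. The fall was 45.7-fold against control cells (log2 fold change -5.50, SE 0.105, edgeR adjusted p = 9.24e-12) and 46.9-fold against HD-het cells (-5.54, SE 0.105, adjusted p = 1.01e-11).

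Itga3, whose dimer with Itgb1 binds Lama5-containing laminins, was also lowest in HD-homo cells, by a smaller fold. It measured 364, 359.6 and 369 CPM in control libraries 1 to 3, 365, 322 and 284 in those of HD-het and 77.4, 60.1 and 58.1 in those of HD-homo cells. HD-homo cells lay below all others, while control and HD-het libraries overlapped. The level was 5.59-fold lower in HD-homo cells than in controls (log2 fold change -2.48, SE 0.117, edgeR adjusted p = 1.22e-08) and 4.96-fold lower than in HD-het cells (-2.31, SE 0.116, adjusted p = 1.56e-08). Itga6, the remaining laminin-binding subunit, stood at 318 ± 6.60, 188 ± 2.36 and 302 ± 66.1 CPM, lower in HD-het cells than in controls by -0.76 on the log2 scale (edgeR adjusted p = 2.59e-04), with a difference of -0.077 between HD-homo and control cells (adjusted p = 0.616).

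These falls stood beside those of neural progenitor genes in HD-homo cells. All 4 genes of that list were lower in HD-homo cells than in controls, with Sox2 at 128 ± 11.2, 82.9 ± 3.31 and 5.48 ± 0.436 CPM and Pax6 at 32.1 ± 0.605, 48.2 ± 1.23 and 0.132 ± 0.0327 in control, then HD-het, then HD-homo cells. The summed list ranged from 5894 to 6356, 5315 to 5819 and 4157 to 4574 CPM, most of it Vim, and no gene of the list was at 0. Its part in the result was not tested.

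Of the collagen-binding subunits, Itga1 was highest in HD-het cells and Itga2 in HD-homo cells. Itga1, a receptor subunit for basement membrane collagen, measured 2.18, 2.80 and 1.66 CPM in control libraries 1 to 3, 40.8, 46.2 and 25.7 in those of HD-het and 2.54, 2.87 and 5.34 in those of HD-homo cells. Each HD-het library exceeded all others, and control and HD-homo cells overlapped (log2 fold change 0.68, SE 0.34, edgeR adjusted p = 0.108). HD-het cells were 17.0-fold above control cells (log2 fold change 4.08, SE 0.306, edgeR adjusted p = 7.14e-07), and HD-homo cells were 10.5-fold below HD-het cells (-3.40, SE 0.286, adjusted p = 9.71e-07). Of the 50-base words of the Itga1 transcript, 5.5% also occur in other genes, among them Gm49395, which overlaps its exons on the same strand.

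Itga2, the collagen receptor subunit also found on platelets, had 4, 1 and 2 reads in control libraries 1 to 3, 28, 14 and 24 in those of HD-het and 647, 287 and 815 in those of HD-homo cells. The lines did not overlap, and HD-homo replicate 2 held the lowest count of its line. In CPM the means were 0.0739 ± 0.0477, 0.645 ± 0.192 and 17.0 ± 9.10. HD-homo cells were 229.7-fold above control cells (95% counting interval 106 to 548), with a fitted log2 fold change of 7.78. They were 26.3-fold above HD-het cells (log2 fold change 4.70, SE 0.475, edgeR adjusted p = 4.38e-06). HD-het cells were 8.73-fold above control cells (95% counting interval 4.06 to 22.9), with a fitted log2 fold change of 3.08. The fitted values against control cells depend on the prior count. Itga2 lies at chr13:114833081-114932100 and Itga1 at chr13:114953096-115101964, both on the minus strand and 21.0 kb apart, so these neighbours had their highest levels in different lines.

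The other collagen-binding subunits were scarce. Itga10, of cartilage, stood at 2.09 ± 0.334, 2.20 ± 0.202 and 0.841 ± 0.282 CPM and was called lower in HD-homo cells than in both other lines, and 32% of its 50-base words also occur in Gm42957, which overlaps it on the same strand, so its counts are uncertain. Itga11, of fibroblasts, stood at 0.512 ± 0.151, 1.66 ± 0.926 and 1.77 ± 1.1 CPM. It was called higher in both HD lines than in control cells, with adjusted p of 0.0193 for HD-homo and 0.0216 for HD-het cells. The former was lost without control replicate 2 (0.0616) or 3 (0.0640) or HD-homo replicate 3 (0.0853), and the latter without control replicate 2 (0.0657) or 3 (0.0694) or HD-het replicate 1 (0.0952) or 2 (0.0595).

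Of the RGD-binding subunits, which recognise the tripeptide arginine-glycine-aspartate, Itga5 and Itgav differed little between the lines. Itga5, the fibronectin receptor subunit, stood at 717 ± 64.3, 864 ± 87.7 and 907 ± 194 CPM, with log2 fold changes of 0.27 in HD-het (edgeR adjusted p = 0.115) and 0.34 in HD-homo cells (adjusted p = 0.0585). Without HD-homo replicate 2, the lowest library of its line, these were 0.27 (adjusted p = 0.0160) and 0.51 (8.63e-04). Itgav, the subunit of vitronectin receptors, stood at 430.2 ± 18.5, 527 ± 22.1 and 486 ± 20.8 CPM, higher by 0.29 in HD-het (edgeR adjusted p = 0.00116) and by 0.18 in HD-homo cells (adjusted p = 0.0248). The latter was lost without control replicate 2 (0.0713) or 3 (0.0904) or HD-homo replicate 2 (0.0703).

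Itga8, whose dimer with Itgb1 binds nephronectin, was measurable in HD-het cells and at the floor elsewhere. Its counts were 1, 2 and 2 in control libraries 1 to 3, 212, 208 and 150 in those of HD-het and 1, 0 and 0 in those of HD-homo cells. Every HD-het library stood far above the floor of 3 counts, and every other library lay under it. HD-het cells reached 5.60 ± 0.979 CPM, 106 times the control level (95% counting interval 45.6 to 331), with a fitted log2 fold change of 6.64 that depends on the prior count. The ratio of HD-het to HD-homo cells rests on 1 count in HD-homo cells and had a counting interval of 109 to 24044.

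Itga2b, the platelet fibrinogen receptor subunit that pairs with Itgb3, was highest in HD-homo cells. It measured 4.79, 4.49 and 3.99 CPM in control libraries 1 to 3, 4.37, 3.75 and 2.64 in those of HD-het and 14.3, 14.8 and 8.02 in those of HD-homo cells. HD-homo cells exceeded the others, which overlapped. The level was 2.80-fold higher in HD-homo cells than in the cells of the control line (log2 fold change 1.49, SE 0.234, edgeR adjusted p = 2.32e-04).

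Platelet genes moved with Itga2 and Itga2b only through Ppbp, a platelet chemokine. Of the 4 listed, 1 passed the filter, and the summed list ranged from 0.0676 to 0.436 CPM in control, 0.0300 to 0.244 in HD-het and 234 to 514 in HD-homo cells. Ppbp alone reached 328 ± 161 CPM in HD-homo cells. The defining platelet markers were at or near 0, with 0 reads for Gp9, at most 2 for Pf4 and at most 5 for Gp1ba.

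Itga4, the subunit that binds fibronectin and Vcam1, differed between all lines. Control libraries held 3.70, 3.66 and 3.58 CPM, HD-het libraries 10.9, 14.4 and 9.91, and HD-homo libraries 1.56, 1.54 and 1.37, with no overlap. It was 3.22-fold higher in HD-het than in control cells (log2 fold change 1.68, SE 0.147, edgeR adjusted p = 2.15e-06) and 2.45-fold lower in HD-homo cells (-1.29, SE 0.171, adjusted p = 6.31e-05). Its relative Itga9, a receptor subunit for tenascin-C, was seen mainly in HD-het cells, with 53, 35 and 48 reads against 2, 2 and 5 in control and 1, 0 and 2 in HD-homo cells. HD-het cells were 13.8-fold above control cells for Itga9 (95% counting interval 7.25 to 31.7).

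**Figure D4:**
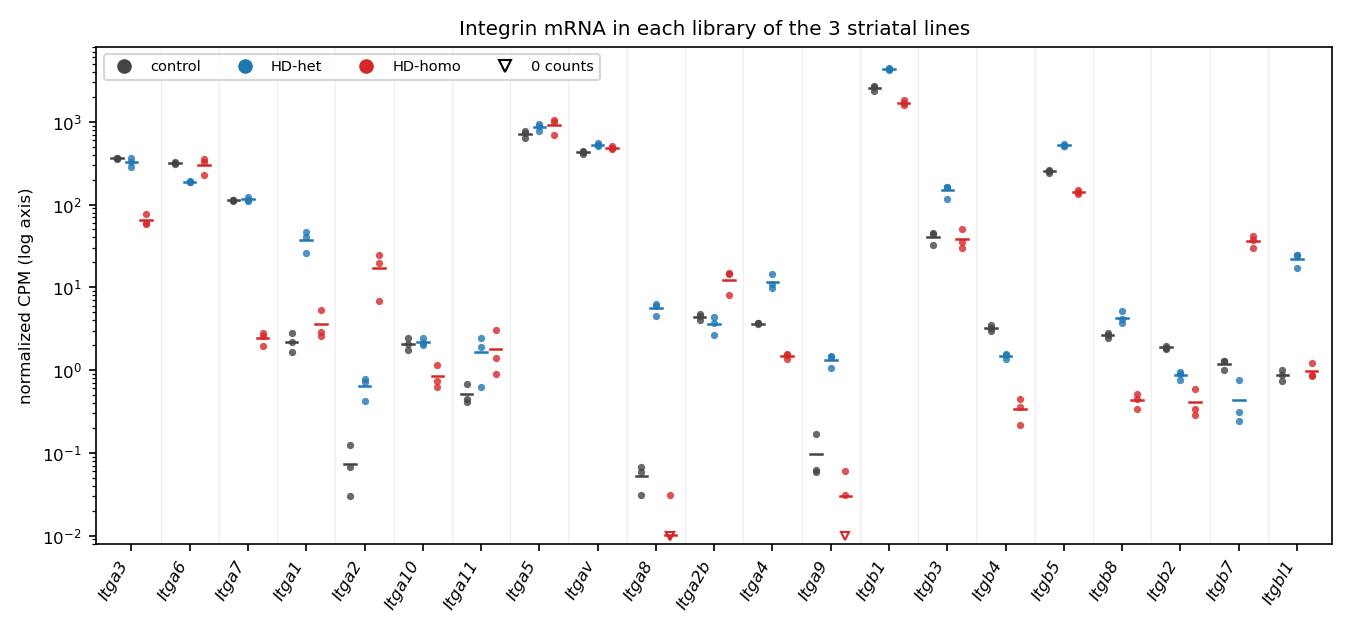
Normalized CPM of the 20 tested integrin genes and Itgbl1 in each library (points, log axis) with the mean of each line (bars) and libraries with 0 counts at the lower edge (open triangles). Itgb1 is the highest gene in every library, Itga1, Itga8 and Itgbl1 are highest in HD-het cells, and Itga2 and Itgb7 are highest in HD-homo cells.

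Itgb1, the beta subunit shared by most laminin, collagen and fibronectin receptors, was the most abundant integrin mRNA per kb. It measured 2683, 2652 and 2359.7 CPM in control libraries 1 to 3, 4386, 4507 and 4197 in those of HD-het and 1668, 1592 and 1847 in those of HD-homo cells. The lines did not overlap, with HD-het highest and HD-homo lowest. The log2 fold change was 0.77 in HD-het cells (SE 0.0781, edgeR adjusted p = 7.03e-06), -0.59 in HD-homo cells (SE 0.0779, adjusted p = 5.93e-05) and -1.36 between them (SE 0.079, adjusted p = 4.80e-08).

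Itgb5, which pairs with Itgav, followed the same order. It measured 257, 258 and 243 CPM in control libraries 1 to 3, 541, 505 and 505 in those of HD-het and 141, 149 and 136 in those of HD-homo cells, again without overlap. HD-het cells were 2.05-fold above control cells (log2 fold change 1.03, SE 0.0575, edgeR adjusted p = 7.82e-08) and HD-homo cells 1.78-fold below them (-0.83, SE 0.0577, adjusted p = 3.05e-07). Itgb3, the partner of Itgav and Itga2b, measured 45.7, 44.4 and 32.6 CPM in control libraries 1 to 3, 164, 165 and 117 in those of HD-het and 51.1, 29.5 and 35.1 in those of HD-homo cells. HD-het cells stood above the others, which overlapped. The log2 fold change of Itgb3 was 1.86 in HD-het cells (SE 0.204, edgeR adjusted p = 1.24e-05) and -0.089 in HD-homo cells (SE 0.203, adjusted p = 0.726).

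Itgb8 and Itgb4 were lowest in HD-homo cells. Itgb8, another partner of Itgav that engages latent TGF-beta, stood at 2.62 ± 0.151, 4.31 ± 0.737 and 0.435 ± 0.0925 CPM, and Itgb4, the partner of Itga6 in epithelial hemidesmosomes, at 3.27 ± 0.272, 1.5 ± 0.106 and 0.339 ± 0.117. Itgb8 was called higher in HD-het and lower in HD-homo cells, and Itgb4 lower in both. Itgb6, an epithelial partner of Itgav, had at most 8 reads and was not tested.

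Itgb7, which on lymphocytes pairs with Itga4 or Itgae, was the beta subunit with the largest increase in HD-homo cells among those tested. It measured 1.28, 1.01 and 1.28 CPM in control libraries 1 to 3, 0.310, 0.244 and 0.749 in those of HD-het and 41.3, 37.5 and 29.6 in those of HD-homo cells. No libraries of different lines overlapped. HD-homo cells were 30.4-fold above control cells (log2 fold change 4.93, SE 0.219, edgeR adjusted p = 7.65e-09) and 83.3-fold above HD-het cells (6.37, SE 0.252, adjusted p = 2.29e-09), and HD-het cells were 2.74-fold below control cells (-1.45, SE 0.353, adjusted p = 0.00379). The increase of Itgb7 went with no such increase of its known partners: per kb, HD-homo cells held 13.5 ± 2.22 CPM of Itgb7, 0.153 ± 0.0107 of Itga4 and 0.0194 ± 0.0121 of Itgae.

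The other leukocyte integrins were scarce. Itgb2, the beta subunit of most leukocyte integrins, stood at 1.88 ± 0.0840, 0.873 ± 0.101 and 0.406 ± 0.167 CPM and was lower in both HD lines. The leukocyte alpha subunits were not tested, with at most 13 reads for Itgad, 9 for Itgax, 4 for Itgae, and 3 each for Itgal and Itgam, and Itgb2l had 0. Of the 50-base words of Itgam, 72.4% also occur in Gm49368. Among 7 leukocyte markers 2 passed the filter, Csf1r and Cd68. The list summed to 2.52 to 2.84 CPM in control, 3.67 to 6.17 in HD-het and 4.29 to 4.89 in HD-homo cells. Csf1r stood at 0.544, 0.666 and 2.04 CPM in control, then HD-het, then HD-homo cells, and Cd68 at 1.82, 3.47 and 2.45. Csf1r was called higher in HD-homo cells than in controls (log2 fold change 1.89, edgeR adjusted p = 3.80e-05). Cd68 was called higher in HD-het cells than in controls (0.93, adjusted p = 0.00297). Aif1 and Cd3e had 0 reads, and the pan-leukocyte gene Ptprc had at most 19.

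Itgbl1, the beta-like protein, was high in HD-het cells and low in the others. It measured 0.871, 0.743 and 1.01 CPM in control libraries 1 to 3, 24.4, 24.9 and 17.0 in those of HD-het and 0.858, 0.876 and 1.22 in those of HD-homo cells. HD-het cells lay far above the others, which overlapped. The ratio to control was 25.2 (log2 fold change 4.66, SE 0.204, edgeR adjusted p = 1.44e-08), and HD-homo cells were 22.4-fold below HD-het cells (-4.49, SE 0.197, adjusted p = 5.27e-09).

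Smooth muscle genes had their highest mean level in HD-het cells, as did many integrin and laminin genes. This order was not particular to smooth muscle genes. Nes and Pax6 of the progenitor list were also highest in HD-het cells, while Sox2 and Vim were highest in control cells. All 4 smooth muscle genes listed passed the filter. They summed to 2313 to 2707 CPM in control, 6868 to 7530 in HD-het and 96.9 to 181 in HD-homo cells. Acta2 stood at 2271 ± 186, 5290.0 ± 354 and 91.8 ± 30.5 CPM and Cnn1 at 1.66 ± 0.240, 39.5 ± 11.5 and 0.957 ± 0.322, while Myh11, which defines mature smooth muscle, stood at 28.5 ± 0.757, 32.5 ± 2.01 and 29.9 ± 2.13. No gene of this list was at 0, and its part in the results was not tested.

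Fibroblast and mural cell genes were higher in sum in both HD lines, while single genes of the list went different ways. Of the 7 listed 6 passed the filter, and they summed to 2569 to 3475 CPM in control, 7865 to 9103 in HD-het and 6496 to 7017 in HD-homo cells. Col1a1 made up most of the sum, at 2465 ± 382, 7097 ± 734 and 4234 ± 226 CPM. Pdgfrb, a receptor known from mural cells, was highest in HD-het cells, at 92.7 ± 7.60, 362 ± 15.4 and 146 ± 22.9 CPM. Col1a2 stood at 73.4 ± 6.19, 3.15 ± 0.424 and 1494 ± 75.0 CPM and Pdgfra at 5.21 ± 0.880, 4.38 ± 0.777 and 307 ± 5.22, both highest in HD-homo cells. Lum had at most 9 reads and none in control and HD-het cells, and the part of this list in the results was not tested.

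Per kb, the integrin alpha subunits summed to 404 ± 19.0 CPM in control, 418 ± 31.6 in HD-het and 367 ± 58.0 in HD-homo cells, and the beta subunits to 758 ± 50.6, 1328 ± 46.8 and 509.8 ± 30.8. Itga5 was the largest alpha share in each line, with 40.4% ± 1.80, 47.0% ± 1.26 and 56.0% ± 3.55. The second place did not separate from its neighbours within the SD in control cells, where Itga3 held 18.6% ± 1.08 and Itga6 18.3% ± 0.512, nor in HD-homo cells, where Itgav held 19.2% ± 4.2 and Itga6 19.0% ± 1.37. Itga3 fell to 3.70% ± 0.648 and Itga7 from 6.94% ± 0.142 to 0.173% ± 0.0572 in HD-homo cells. Itgb1 held 88.6% ± 0.263, 86.1% ± 0.518 and 87.5% ± 1.47 of the beta sum. Itgb7, at 2.66% ± 0.548, exceeded Itgb3, at 1.31% ± 0.384, in HD-homo cells. For Itga6 and Itgb5, 6.5% and 8.17% of the 50-base words also occur in Gm29397 and Gm38317, and most other tested genes share none.

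Partner genes of the 2 families were listed by function, 96 in all, and 86 were tested. In HD-homo against control cells 29 were higher and 34 lower, in HD-het against control cells 49 were higher and 16 lower, and in HD-homo against HD-het cells 23 were higher and 51 lower, beside the shares over all genes given above. A called log2 fold change of 1 or more in size was found for 20, 24 and 34 of the 86 partners in these comparisons. Over all tested genes, 19.1%, 18.4% and 24.3% reached it.

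Of the activators and adaptors that act on integrin tails inside the cell, 33 of 35 were tested. In HD-homo cells 6 were higher and 15 lower than in control cells, and in HD-het cells 18 higher and 7 lower. These are 63.6% and 75.8% of those tested, where 58.6% and 65.1% of all tested genes were called. The median log2 fold change was -0.13 and 0.37, beside 0.0077 and 0.025 over all tested genes. Tln2, the talin of brain and muscle, stood at 137 ± 15, 184 ± 3.98 and 21.3 ± 0.862 CPM and fell by 2.69 on the log2 scale in HD-homo cells (edgeR adjusted p = 3.72e-10). Parvb, an actin-binding partner of integrin-linked kinase, stood at 98.6 ± 3.21, 5.24 ± 0.528 and 122 ± 40.2 CPM and fell by 4.23 in HD-het cells (adjusted p = 7.84e-08). Tln1, the widespread talin, was looked at after its values were seen and stood at 835 ± 20.6, 1163 ± 34.6 and 571 ± 28.7 CPM.

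**Figure D5:**
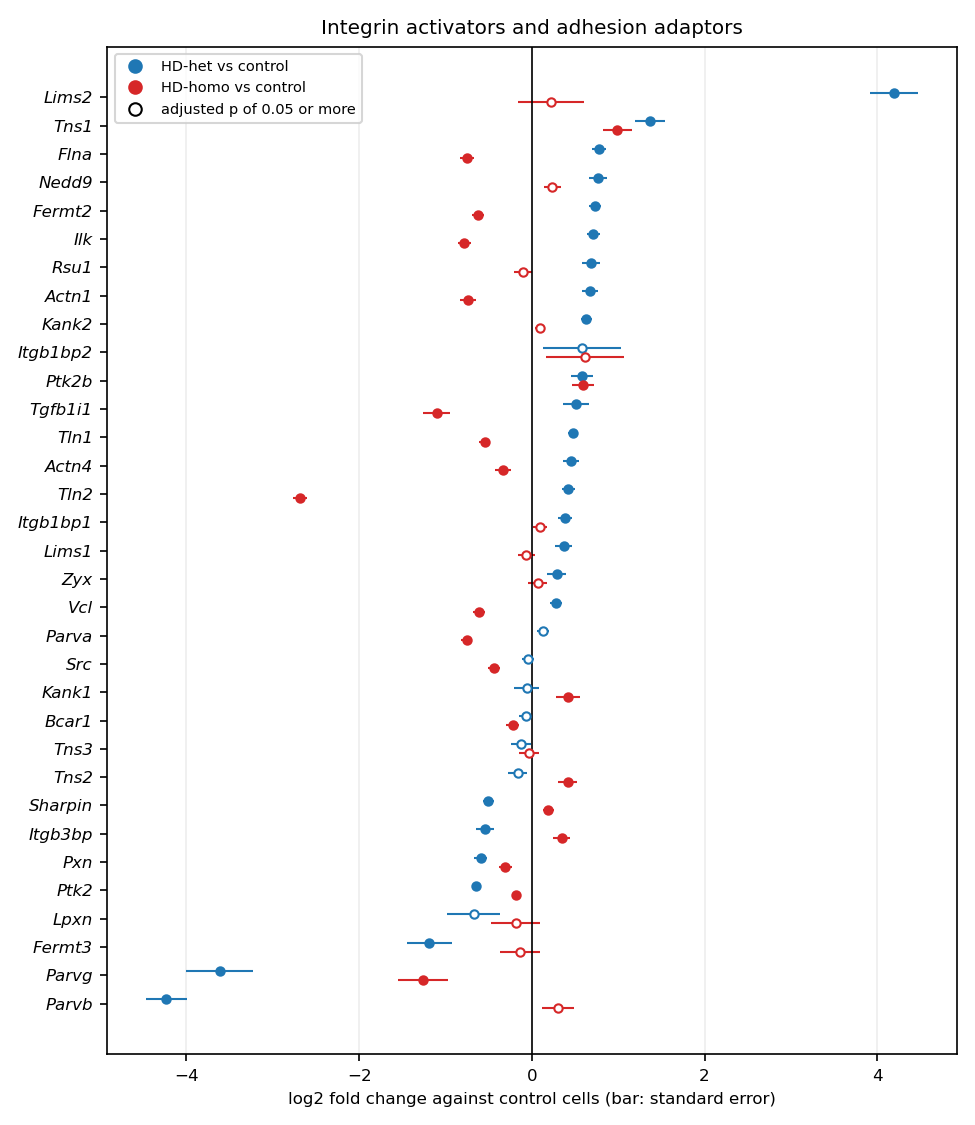
Log2 fold change with its standard error of the 33 tested integrin activators and adhesion adaptors in HD-het (blue) and HD-homo cells (red) against control cells, which both comparisons share; open symbols have an adjusted p of 0.05 or more. Tln2 lies at -2.69 in HD-homo cells. In HD-het cells Lims2 lies at 4.19, Parvb at -4.23 and Parvg at -3.62, while most others lie within 1 of 0.

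Of the matrix ligands 23 of 26 were tested, with 11 higher and 6 lower in HD-homo and 17 higher and 2 lower in HD-het cells than in control cells. These are 73.9% and 82.6% of those tested, where 58.6% and 65.1% of all tested genes were called. Fbln1, the basement membrane protein fibulin, stood at 0.0640 ± 0.0623, 9.64 ± 1.18 and 46.5 ± 1.68 CPM, with fitted log2 fold changes of 7.18 in HD-het and 9.45 in HD-homo cells against a control level near the floor, which depend on the prior count. Its levels and those of Lama4 had the same order over the 3 lines. Tgfbi, a ligand of collagen-binding and other integrins, rose by 5.23 in HD-homo cells to 119 ± 8.12 CPM (edgeR adjusted p = 1.08e-08), and Emilin1, a ligand of Itga4 and Itga9 dimers, rose by 3.37 to 321 ± 74.3 CPM (4.46e-08). Spp1, the RGD ligand osteopontin, stood at 375 ± 62.0, 1119 ± 248 and 53.5 ± 10.1 CPM and fell by 2.81 in HD-homo cells (edgeR adjusted p = 2.47e-07). Nid2, which ties laminin to collagen in basement membranes, rose by 5.04 in HD-het cells, from 5.91 ± 0.632 to 195 ± 10.6 CPM (edgeR adjusted p = 2.76e-11).

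Of the 9 counter-receptors on other cells 5 were tested, with 3 higher and 1 lower in HD-homo and 4 higher and 1 lower in HD-het cells than in control cells. These are 80% and 100% of those tested, where 58.6% and 65.1% of all tested genes were called. Vcam1, the ligand of Itga4 dimers, stood at 112 ± 1.92, 27.2 ± 0.510 and 9.51 ± 1.81 CPM, with log2 fold changes of -2.05 in HD-het (edgeR adjusted p = 3.11e-08) and -3.55 in HD-homo cells (4.23e-10). Dystroglycan, its glycosylation enzymes and the other laminin receptors gave 7 higher and 8 lower in HD-homo and 8 higher and 4 lower in HD-het cells among 18 tested of 19. Their called shares were 83.3% and 66.7%, the latter near the 65.1% over all tested genes. Dmd, the dystrophin gene that links dystroglycan to actin, rose by 4.75 in HD-het cells, from 0.518 ± 0.141 to 14.2 ± 4.49 CPM (edgeR adjusted p = 1.49e-07). Among the 7 membrane proteins that accompany integrins, 2 were higher and 4 lower in HD-homo and 2 higher and 2 lower in HD-het cells. Their called shares were 85.7% and 57.1%, beside 58.6% and 65.1% over all tested genes. The tetraspanin Cd82 stood at 26.2 ± 0.277, 0.129 ± 0.0479 and 38.6 ± 3.41 CPM and had a fitted log2 fold change of -7.64 in HD-het against control cells, with the HD-het level near the floor.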

How the data were processed

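RNA-seq was made from 9 libraries of 3 striatal lines. Per the labels, total RNA was isolated by column, poly(A) mRNA was selected and directional libraries were prepared. The authors deposited whole-number counts per gene symbol for each library, with no normalization. The submitters' processing notes name cutadapt, Bowtie 1.1.2, RSEM 1.3.0, DESeq2, mm10 and GRCm38.p5, but which step gave the table is not given in the sources used here, so the counts may be rounded estimates that split reads between similar genes. No blank or summary line was found among the symbols.

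Samples were grouped by the titles in the labels. Counts were filtered with filterByExpr (minimum count 10), scaled by TMM and fitted with edgeR 4.0.16 in R 4.3.3 by glmQLFit, with 1 mean per line over all 9 libraries. The 3 pairs of lines were compared by edgeR's quasi-likelihood test, adjusted by Benjamini-Hochberg over 13508 genes, with a threshold of 0.05. Folds are ratios of mean normalized CPM, and SE is the log2 fold change divided by the root of F. Counting intervals (95%) treat the summed counts as exact binomial shares. The steps were tested on simulated data.

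The gene lists were chosen with earlier results of these data known. Genes were given in full where they reached a mean of 5 CPM in 1 line and a log2 fold change of 1 in size with an adjusted p under 0.05 in a comparison (18 genes), and partner genes where they were the 3 largest increases or decreases in an HD line against control cells with at least 5 CPM. Matches of GENCODE M21 and RefSeq are on GRCm38, the assembly of mm10. Alternatives were other scaling, filters, thresholds, prior count, samples in the fit, a replicate block, the Wald test of DESeq2 1.42.0 and leaving out each library. Ribosome profiles, blots and tissue samples of the study were not analysed here. The values of 1 tested gene are not reported here, although it remains in the counts of genes.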

Additional observations from a re-analysis of the deposited data

How the results depend on the processing

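Among repeats of the fold changes of single integrin and laminin genes, 1455 kept their direction and side of the threshold, 28 lost a call, 12 gained one and 11 changed the sign of an uncalled value, all of these on leaving out 1 library. Over the libraries left out, the log2 fold changes that changed sign ranged in HD-homo against control cells from -0.21 to 0.091 for Itga6, -0.34 to 0.075 for Itgb3 and -0.0079 to 0.28 for Itgbl1, with the sign turned without HD-homo replicate 2, 2 and 3. In HD-het against control cells they ranged from -0.035 to 0.19 for Itga10, turned without HD-het replicate 1 (-0.0041) or control replicate 3, and from -7.8e-04 to 0.066 for Itga7, turned without HD-het replicate 1. Between the HD lines the range was -0.55 to 0.46 for Itga11, turned without replicate 3 of HD-het (-0.32) or HD-homo cells, and -0.039 to 0.24 for Itga5, turned without HD-het replicate 3 (-0.0074) or HD-homo replicate 1 (-0.0064) or 3. Itga5 in HD-homo against control cells passed the threshold with library totals only (adjusted p = 0.0450), no filter (0.0433) and DESeq2's Wald test (0.0326).

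Requiring 10 counts in every library left 24 of these genes, and 11739 over the whole table. In HD-homo against control cells 5 of the 24 were called higher and 13 lower, where 6750 of the 11739 were called. In HD-het against control cells 13 were higher and 3 lower, where 7762 of the 11739 were called. Between the HD lines 4 were higher and 17 lower, where 8354 of the 11739 were called. Requiring a log2 fold change of 1 in size left 7 genes higher and 10 lower in HD-homo against control cells. It left 13 higher and 3 lower in HD-het against control cells, and 4 higher and 17 lower between the HD lines. Of the partner genes it left 10 higher and 10 lower in HD-homo cells, 16 higher and 8 lower in HD-het cells, and 11 higher and 23 lower between the HD lines. Over all tested genes, 19.1%, 18.4% and 24.3% met this requirement. These alternatives test fewer genes or set a stricter threshold by construction. Genes near the floor, such as Itga8, Itga9 and Lama4 in their low lines, have ratios limited by counting.

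Whether the replicate numbers pair the libraries was not settled. The correlations below cannot decide it, since differently numbered libraries were not correlated beside them. Deviations of same-numbered libraries correlated at 0.0332, 0.0219 and 0.0089 for HD-homo and control. The values were 0.0488, 0.145 and 0.133 for HD-het and control, and -0.0053, 0.133 and 0.115 for the HD lines. Fitted as a block, the replicate number gave 8372, 9160 and 9938 called genes in these comparisons, against 7910, 8797 and 9666 without it, and changed no call of an integrin or laminin gene.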
